A study of Mus musculus with 9 samples.

Results

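BAF complexes are the ATP-driven chromatin remodellers of the mammalian SWI/SNF family, and several of their positions can be filled by alternative proteins. Described here are 10 mouse genes that encode such alternatives: Actl6a and Actl6b (BAF53a and BAF53b), Phf10, Dpf1, Dpf2 and Dpf3 (the BAF45 proteins), Ss18 and Ss18l1 (SS18 and CREST), and the ATPases Smarca4 and Smarca2 (BRG1 and BRM). They were chosen by symbol from 23360 genes listed for each of 9 RNA libraries, as progenitor and neuronal counterparts and as alternative ATPases. Every one of the 10 was listed and expressed in all 9 libraries.

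The libraries came from medulloblastoma, a tumour of the cerebellum, and from normal cerebellum, with 3 libraries in each of 3 groups. A1G tumours were primary tumours of Math1-cre;A1G;Ptch1+/- mice, in which Cre is driven by the Math1 (Atoh1) promoter of granule neuron progenitors. Per the series' design text these tumours were driven by the transcription factor ATOH1 together with Hedgehog signalling, and the labels do not spell out the A1G allele further. Ptch1 tumours were primary tumours of Ptch1+/- mice, so loss of 1 copy of the Hedgehog receptor gene Ptch1 was shared by both tumour groups. The third group was whole cerebellum of wild-type adult mice. Tumour mice were of mixed strain and cerebellum donors were C57BL/6, so strain and tissue cannot be told apart. The ages of the tumour mice are not given in the sources used here.

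During brain development, dividing neural progenitors assemble BAF complexes with BAF53a, BAF45a (Phf10), BAF45d (Dpf2) and SS18. As cells leave the cycle and become neurons, these give way to BAF53b, BAF45b (Dpf1), BAF45c (Dpf3) and CREST. REST and the microRNAs miR-9* (now miR-9-3p) and miR-124 are textbook regulators of this exchange: REST holds down the microRNA genes in progenitors, and the microRNAs then act on the Actl6a transcript. In the cerebellum the granule neuron lineage, from which Hedgehog medulloblastoma arises, passes through both states.

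A match to the miR-9-3p seed in the Actl6a transcript is shown first, because Actl6a gave the largest difference from cerebellum of all 10 genes. It was found by its letters, and was not checked against sites known from experiments. The mature microRNA is from RefSeq, identical for its 3 mouse loci, with the seed (bases 2 to 8) in capitals. The Actl6a site lies on the + strand at chr3:32726628-32726657 (mm10, GENCODE M21) in the 3′ untranslated region, with the match to the seed in capitals.
miR-9-3p: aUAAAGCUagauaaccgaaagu
Actl6a site: ctcaacgtctgtAGCTTTAgtacactcagg
The match starts at base 38 of a 371-base untranslated region and is the only one there. Of 1776 mouse 3′ untranslated regions of like length (0.8 to 1.2 times), 2.42% held the heptamer AGCTTTA, and 11.2% of all 20987 did. The Actl6b region held none, Smarca2 held 1 (7.23% of regions of like length held any), and the other members held none. A match in letters is a description and does not show that the microRNA acted in these samples.

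The promoters of 3 members are shown: Actl6a, which rose in both tumour groups, its neuronal counterpart Actl6b, and Dpf3, the neuronal subunit that fell. Each line gives the 250 bases before the RefSeq start site (GRCm38.p6), read 5′ to 3′ on the gene's strand. Capitals mark CCAAT, the box bound by NF-Y (reverse strand ATTGG), and CCACCCA, the core of the Gli motif through which Hedgehog signalling acts. The windows are chr3:32708296-32708545 on the + strand for Actl6a, chr5:137553296-137553545 on the + strand for Actl6b, and chr12:83487737-83487986 on the - strand for Dpf3. The RefSeq starts of Actl6a and Actl6b lie inside the GENCODE spans of these genes given with their levels, that of Actl6a well inside, so other annotated starts of Actl6a are not covered by its window.
Actl6a: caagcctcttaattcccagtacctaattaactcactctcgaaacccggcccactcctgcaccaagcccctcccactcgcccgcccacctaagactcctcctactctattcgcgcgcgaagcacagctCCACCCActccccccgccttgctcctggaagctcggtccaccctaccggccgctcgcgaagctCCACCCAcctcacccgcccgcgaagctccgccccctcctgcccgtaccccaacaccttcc
Actl6b: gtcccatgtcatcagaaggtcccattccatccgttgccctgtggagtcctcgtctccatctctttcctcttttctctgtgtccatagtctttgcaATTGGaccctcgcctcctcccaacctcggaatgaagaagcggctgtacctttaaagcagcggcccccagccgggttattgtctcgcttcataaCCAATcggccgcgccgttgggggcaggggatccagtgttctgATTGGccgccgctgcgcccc
Dpf3: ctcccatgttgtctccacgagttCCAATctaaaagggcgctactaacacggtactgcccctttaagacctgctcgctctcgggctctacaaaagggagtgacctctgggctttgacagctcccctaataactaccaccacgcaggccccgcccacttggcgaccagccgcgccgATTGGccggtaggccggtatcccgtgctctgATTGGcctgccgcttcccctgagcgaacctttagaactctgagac
Both strands were searched in the 9 members with a promoter entry. CCACCCA occurred 2 times before Actl6a and in none of the other 8, and 8.11% of 32851 promoter windows held it at least once (0.694% at least 2 times). CCAAT occurred 3 times each before Actl6b and Dpf3, 2 times before Dpf1 and 1 time before Dpf2, against 33.8% of windows with at least 1 and 10.1% with at least 2. The E-box CAGCTG occurred 1 time before Phf10 (13.0% of windows held any) and CAGATG in no member (14.4% of windows). These motifs were picked with the sequences in view, and no binding was measured here.

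The libraries held 2350941 to 9290237 fragments assigned to genes, and 14337 genes passed a filter on low values and were tested. Levels below are normalised counts-per-million (CPM), listed for replicates 1, 2 and 3 of each group in that order, with mean ± SD (n = 3). Log2 differences carry their standard error (SE). Differences were tested by quasi-likelihood in edgeR, p-values were adjusted by the Benjamini-Hochberg method across every gene tested, and a gene was called where the adjusted p was under 0.05. The labels do not say whether replicates were separate animals, so the p-values reflect only how much these libraries varied, which may be technical. Both tumour comparisons use the same 3 cerebellum libraries, so their results are not independent of each other. Whole tissue was measured, so a change in the share of cells of a type and a change in RNA per cell cannot be told apart.

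Relative to cerebellum, the progenitor subunits Actl6a and Ss18 rose in both tumour groups and the neuronal subunit Dpf3 and the ATPase Smarca2 fell in both. Smarca4 rose in Ptch1 tumours. In A1G tumours 2 of 10 members were called higher and 2 lower, where 32.4% of all tested genes were called (16.3% higher and 16.1% lower). In Ptch1 tumours 3 were called higher and 2 lower, against 40.0% of all tested genes (20.2% higher and 19.7% lower). The share of members called was thus near that of other genes, and what follows concerns which members moved and in which direction. The median log2 difference of the 10 members was 7.6e-05 in A1G tumours (0.03 over all tested genes) and -0.30 in Ptch1 tumours (0.00 over all tested genes).

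**Figure D1:**
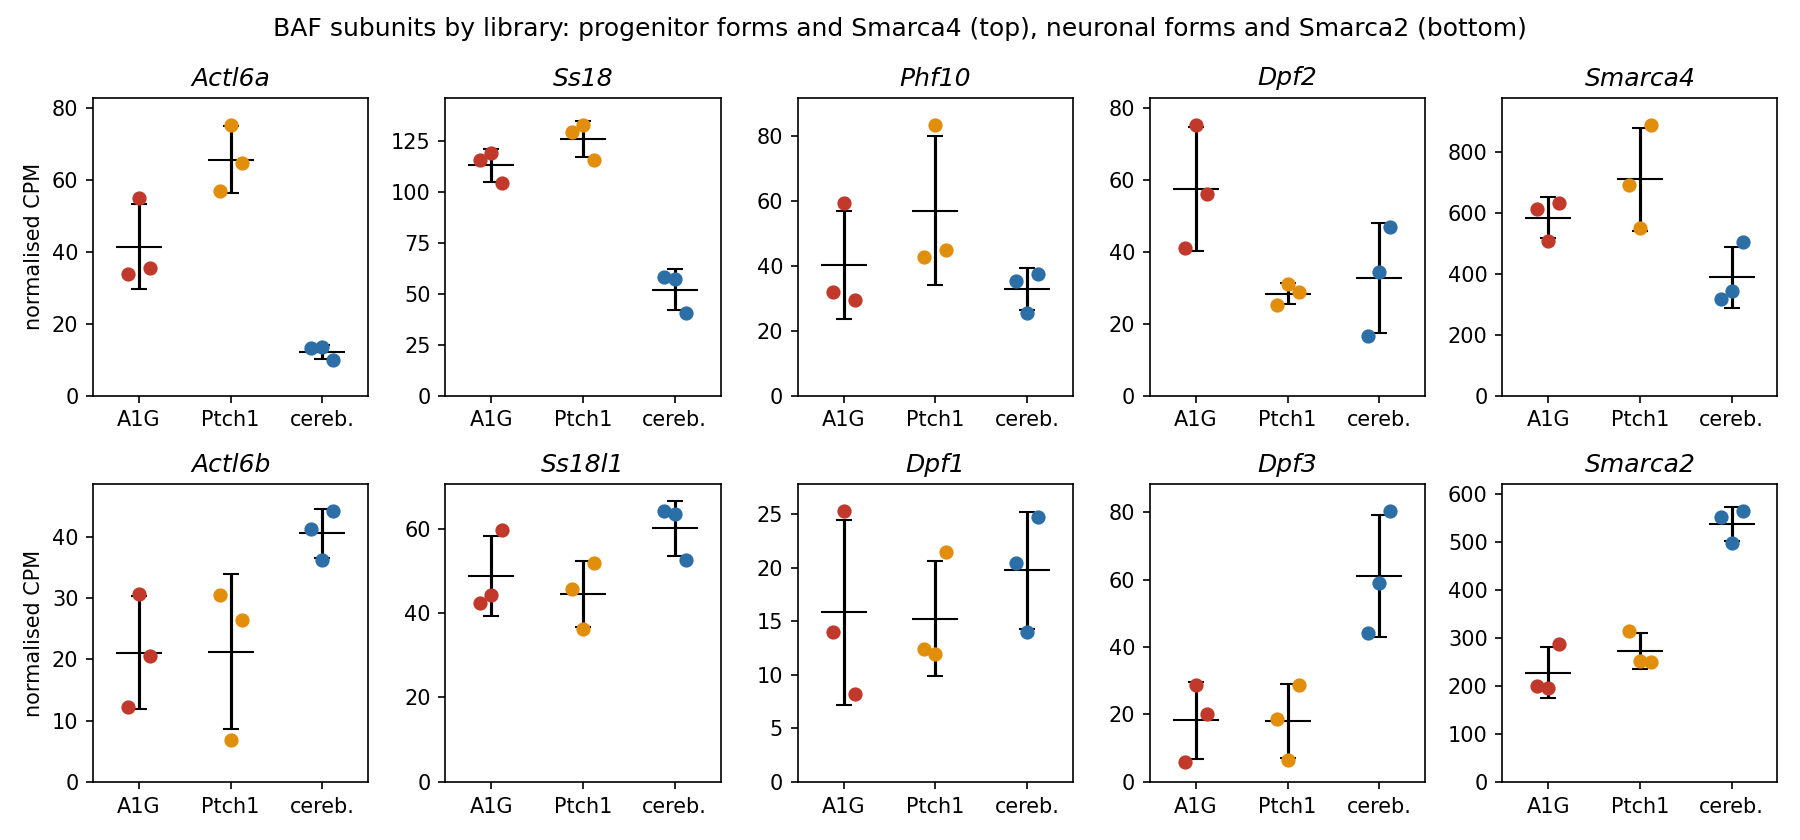
Normalised CPM (linear axis from 0) of each of the 10 subunits in every library, with the group mean as a horizontal line and 1 SD as vertical bars, for A1G tumours, Ptch1 tumours and cerebellum (cereb.). Actl6a and Ss18 lie above cerebellum in all 6 tumour libraries, and Dpf3, Actl6b and Smarca2 lie below it in all 6.

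Actl6a encodes BAF53a, the actin-related subunit of progenitor complexes (3:32706298-32726973, + strand, mm10). Its level was 33.9, 54.9 and 35.4 CPM in A1G tumours, 56.8, 75.2 and 64.7 in Ptch1 tumours and 13.1, 13.4 and 9.98 in cerebellum. The 3 groups did not overlap: cerebellum was lowest, A1G tumours were intermediate and Ptch1 tumours highest. The mean was 41.4 ± 11.7 CPM in A1G tumours, 65.6 ± 9.21 in Ptch1 tumours and 12.2 ± 1.89 in cerebellum. This was 3.41-fold higher than cerebellum in A1G tumours (log2 1.77, SE 0.31, edgeR adjusted p = 0.000952) and 5.40-fold higher in Ptch1 tumours (log2 2.43, SE 0.31, adjusted p = 7.7e-05).

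Actl6b encodes BAF53b, which takes the place of BAF53a in neurons (5:137553517-137569582, + strand). It stood at 12.2, 30.6 and 20.6 CPM in A1G tumours, 30.5, 6.85 and 26.4 in Ptch1 tumours and 41.2, 36.2 and 44.1 in cerebellum. All 6 tumour libraries were below all 3 cerebellum libraries, but the tumours spread widely, with Ptch1 replicate 2 and A1G replicate 1 lowest. The log2 difference from cerebellum was -0.94 (SE 0.50, edgeR adjusted p = 0.172) in A1G tumours and -0.95 (SE 0.49, adjusted p = 0.145) in Ptch1 tumours, and neither passed the threshold. Actl6b transcripts were present in every tumour library, from 33 to 221 fragments over the 9 libraries.

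Ss18 encodes a subunit of progenitor BAF complexes and is the gene fused to SSX in synovial sarcoma. It measured 115, 119 and 104 CPM in A1G tumours, 129, 133 and 116 in Ptch1 tumours and 58.3, 57.2 and 40.3 in cerebellum. Tumour libraries of both kinds lay close together and well above cerebellum. The mean of 113 ± 7.86 CPM in A1G tumours was 2.18-fold that of cerebellum (log2 1.12, SE 0.24, edgeR adjusted p = 0.0040), and the 126 ± 8.95 CPM of Ptch1 tumours was 2.43-fold (log2 1.28, SE 0.24, adjusted p = 0.0013). Cerebellum had 51.9 ± 10.1 CPM.

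Ss18l1 encodes CREST, the calcium-responsive counterpart of SS18 in neurons (2:180042509-180070201, + strand). It ranged from 42.4 to 59.6 CPM in A1G tumours, from 36.3 to 51.7 in Ptch1 tumours and from 52.5 to 64.1 in cerebellum. Ptch1 tumours were below cerebellum without overlap, while A1G replicate 3 lay within the range of cerebellum. Neither log2 difference from cerebellum passed (-0.30, SE 0.27, edgeR adjusted p = 0.421 in A1G tumours; -0.44, SE 0.26, adjusted p = 0.212 in Ptch1 tumours).

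Among the BAF45 proteins, which carry paired PHD fingers that read histone tails, Dpf3 gave the clearest difference. Dpf3 (12:83213745-83487716, - strand) is known from heart and skeletal muscle as well as neurons. It stood at 5.90, 28.7 and 20.2 CPM in A1G tumours, 18.8, 6.63 and 28.7 in Ptch1 tumours and 44.1, 58.99 and 80.3 in cerebellum. Every tumour library was below every cerebellum library, and the lowest were again A1G replicate 1 and Ptch1 replicate 2. Dpf3 fell by 1.74 on the log2 scale in A1G tumours (SE 0.57, edgeR adjusted p = 0.0351), a level 3.34-fold lower, and by 1.79 in Ptch1 tumours (SE 0.57, adjusted p = 0.0249), or 3.47-fold lower. The A1G call was lost without A1G replicate 1 (adjusted p = 0.0940), A1G replicate 3 (0.0758), cerebellum replicate 2 (0.0773) or cerebellum replicate 3 (0.113), and the Ptch1 call without Ptch1 replicate 1 (0.0649), Ptch1 replicate 2 (0.0758), cerebellum replicate 2 (0.0564) or cerebellum replicate 3 (0.0870).

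The other 3 BAF45 genes passed the test in neither comparison with cerebellum. Dpf1 (7:29303951-29318243, + strand), the second neuronal form, ranged from 8.22 to 25.3 CPM in A1G tumours, 11.9 to 21.5 in Ptch1 tumours and 13.99 to 24.8 in cerebellum, and the 3 ranges overlapped. Phf10 (17:14945009-14961273, - strand), the progenitor form, stood at 32.1, 59.6 and 29.6 CPM in A1G tumours, 42.8, 83.5 and 44.8 in Ptch1 tumours and 35.5, 25.5 and 37.5 in cerebellum. Ptch1 tumours were above cerebellum in every library, with a log2 difference of 0.80 (SE 0.36, edgeR adjusted p = 0.10), whereas A1G tumours overlapped cerebellum (0.30, SE 0.37, adjusted p = 0.569). Dpf2 (19:5896516-5913010, - strand), which is made in most tissues, stood at 40.9, 75.2 and 55.9 CPM in A1G tumours, 25.2, 31.1 and 28.7 in Ptch1 tumours and 16.5, 34.4 and 46.9 in cerebellum. Its log2 difference from cerebellum was 0.81 in A1G tumours (SE 0.38, adjusted p = 0.119) and -0.20 in Ptch1 tumours (SE 0.37, adjusted p = 0.698). Without cerebellum replicate 3, the highest of that group, the A1G difference was 1.195 and passed (adjusted p = 0.0447).

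The ATPases are the motors of the complex, and each complex holds 1 of them. Smarca4 (9:21616169-21704230, + strand), needed for granule progenitor growth and for Hedgehog target activation, measured 612, 507 and 633 CPM in A1G tumours, 690.1, 549.7 and 888 in Ptch1 tumours and 316, 344 and 504 in cerebellum. All tumour libraries were above cerebellum, though A1G replicate 2 stood only just above cerebellum replicate 3. The authors' quantification carried a failed status for Smarca4 in A1G replicate 2, whose listed value was kept. Smarca4 rose 1.83-fold in Ptch1 tumours (log2 0.87, SE 0.28, edgeR adjusted p = 0.0276), and the 1.51-fold difference of A1G tumours did not pass (log2 0.59, SE 0.28, adjusted p = 0.132). The Ptch1 call was lost without Ptch1 replicate 1 (adjusted p = 0.0643), Ptch1 replicate 3 (0.104), cerebellum replicate 1 (0.0903) or cerebellum replicate 2 (0.109). Without cerebellum replicate 3 the A1G difference passed as well (log2 0.84, adjusted p = 0.0487).

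Smarca2 (19:26605050-26778322, + strand), the ATPase that rises as cells differentiate, measured 199, 195 and 288 CPM in A1G tumours, 315, 251 and 249 in Ptch1 tumours and 552, 497 and 563 in cerebellum. The highest tumour library was far below the lowest cerebellum library. Smarca2 was 2.36-fold lower in A1G tumours (log2 -1.24, SE 0.25, edgeR adjusted p = 0.00285) and 1.98-fold lower in Ptch1 tumours (log2 -0.98, SE 0.25, adjusted p = 0.0083). Like Actl6a and Ss18, it was called against cerebellum in both tumour groups under every alternative that was run.

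**Figure D2:**
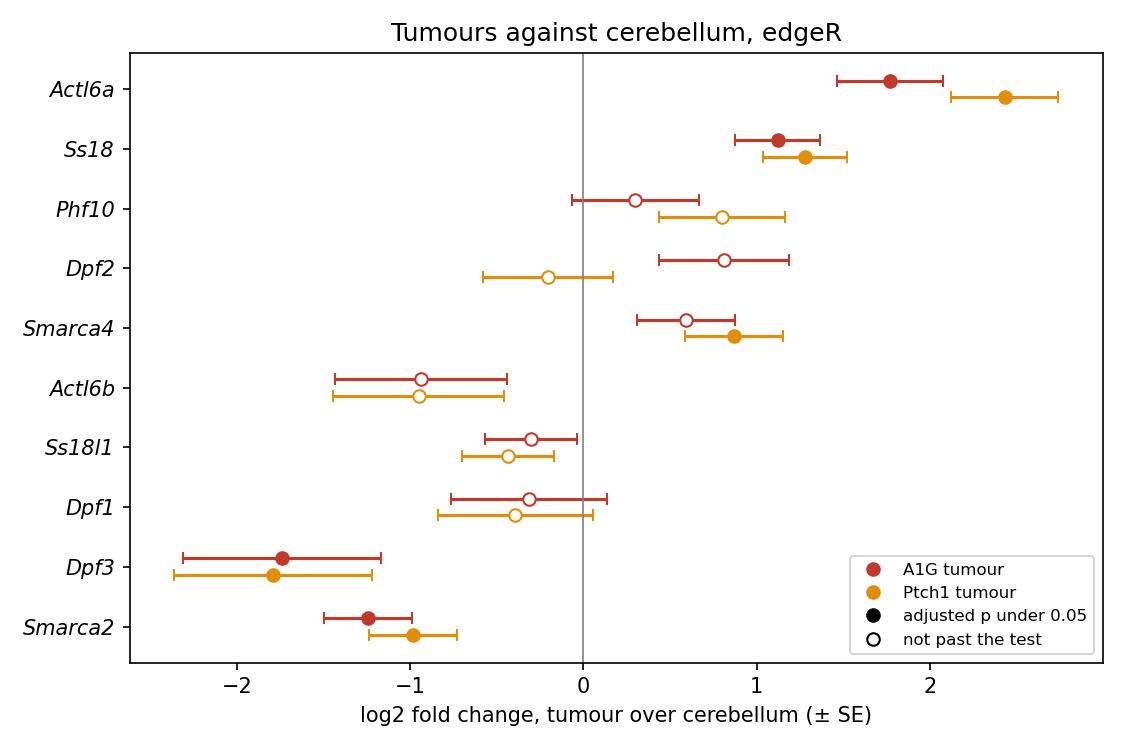
Log2 fold changes of the 10 subunits against cerebellum from edgeR's fit, with bars of 1 SE, for A1G and Ptch1 tumours; filled points passed the test at an adjusted p under 0.05 and open points did not. Actl6a (1.77 and 2.43) and Ss18 (1.12 and 1.28) are filled on the right, and Dpf3 and Smarca2 are filled on the left, in both tumour groups.

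Counted by separation of the libraries alone, Actl6a, Ss18 and Smarca4 were higher and Actl6b, Dpf3 and Smarca2 lower in A1G tumours without overlap, where 45.9% of all tested genes did not overlap (22.5% higher and 23.4% lower). In Ptch1 tumours Phf10 joined the higher members and Ss18l1 the lower ones, giving 4 in each direction, against 54.2% of tested genes (27.2% higher and 27.0% lower). DESeq2 called 4 members in A1G tumours (36.2% of genes) and 5 in Ptch1 tumours (43.1% of genes), as many as edgeR. At an unadjusted edgeR p under 0.05 there were 4 and 6 members, against 42.6% and 48.5% of tested genes.

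Progenitor and neuronal counterparts, and the ATPases Smarca2 and Smarca4, were also set against each other inside each library. This was done on the deposited FPKM scale, where gene length is divided out and any scaling factor of the library cancels. The BAF53 pair was in the order Actl6b over Actl6a in cerebellum and the reverse in every tumour. In cerebellum Actl6b stood at 29.9, 25.7 and 31.96 FPKM beside 7.25, 7.23 and 5.51 FPKM for Actl6a. The ratio was 4.12, 3.55 and 5.80 in cerebellum, 0.471, 0.731 and 0.763 in A1G tumours and 0.704, 0.12 and 0.536 in Ptch1 tumours. The geometric mean was 6.86-fold lower in A1G tumours (log2 -2.78) and 12.3-fold lower in Ptch1 tumours (log2 -3.63) than in cerebellum. Without Ptch1 replicate 2, whose ratio was lowest, the difference of Ptch1 tumours was log2 -2.84, and over all libraries left out in turn it ran from -4.12 to -2.84.

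The other 3 ratios were also lower in the tumours, by smaller amounts. Dpf1 plus Dpf3 over Phf10 plus Dpf2 was 1.275 to 1.502 in cerebellum, 0.244, 0.417 and 0.381 in A1G tumours and 0.458, 0.137 and 0.627 in Ptch1 tumours, 4.14-fold lower in A1G and 4.12-fold lower in Ptch1 tumours (log2 -2.05 and -2.04, the second -1.38 without Ptch1 replicate 2). The neuronal forms together were thus above the progenitor forms in each cerebellum library and below them in each tumour. Of the separate pairs, Dpf3 over Phf10 differed more from cerebellum, by log2 -2.51 in A1G and -2.87 in Ptch1 tumours, without overlap (exact p = 0.1 each, the smallest possible). Dpf1 over Dpf2 was 0.176 to 0.410 in A1G tumours, 0.459 to 0.895 in Ptch1 tumours and 0.488 to 1.48 in cerebellum. Its log2 difference from cerebellum was -1.32 in A1G tumours, without overlap (exact p = 0.1), and -0.31 in Ptch1 tumours, which overlapped cerebellum (exact p = 0.6). Ss18l1 stayed under Ss18 in all 9 libraries, with a ratio of 0.761 to 0.878 in cerebellum, 0.246 to 0.386 in A1G tumours and 0.178 to 0.290 in Ptch1 tumours, which was 2.80-fold and 3.49-fold lower. Smarca2 over Smarca4 was 1.92, 1.61 and 1.23 in cerebellum, 0.455 to 0.604 in A1G tumours and 0.355 to 0.817 in Ptch1 tumours, 2.998-fold and 2.64-fold lower.

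No tumour library overlapped cerebellum in any of these 4 ratios. The share of other gene pairs without overlap was not computed. Of single tested genes, 45.9% did not overlap in A1G tumours and 54.2% in Ptch1 tumours. The ratios reuse the member values given above and are not separate evidence. For each of the 8 differences from cerebellum the exact two-sided permutation test gave p = 0.1, the smallest that 3 against 3 libraries allow (0.15 after Benjamini-Hochberg adjustment over the 12 ratio tests), so no ratio could reach 0.05 in this design. Between A1G and Ptch1 tumours the log2 differences were 0.85 for BAF53 (exact p = 0.5, and 0.060 without Ptch1 replicate 2), 0.32 for SS18 (exact p = 0.4), -0.0063 for BAF45 (exact p = 1) and -0.18 for the ATPases (exact p = 0.7). The near-zero BAF45 value joins pairs with opposite signs: Dpf1 over Dpf2 was lower in A1G than in Ptch1 tumours without overlap (log2 -1.02, exact p = 0.1, the smallest possible), and Dpf3 over Phf10 was higher with overlap (log2 0.37, exact p = 0.6).

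**Figure D3:**
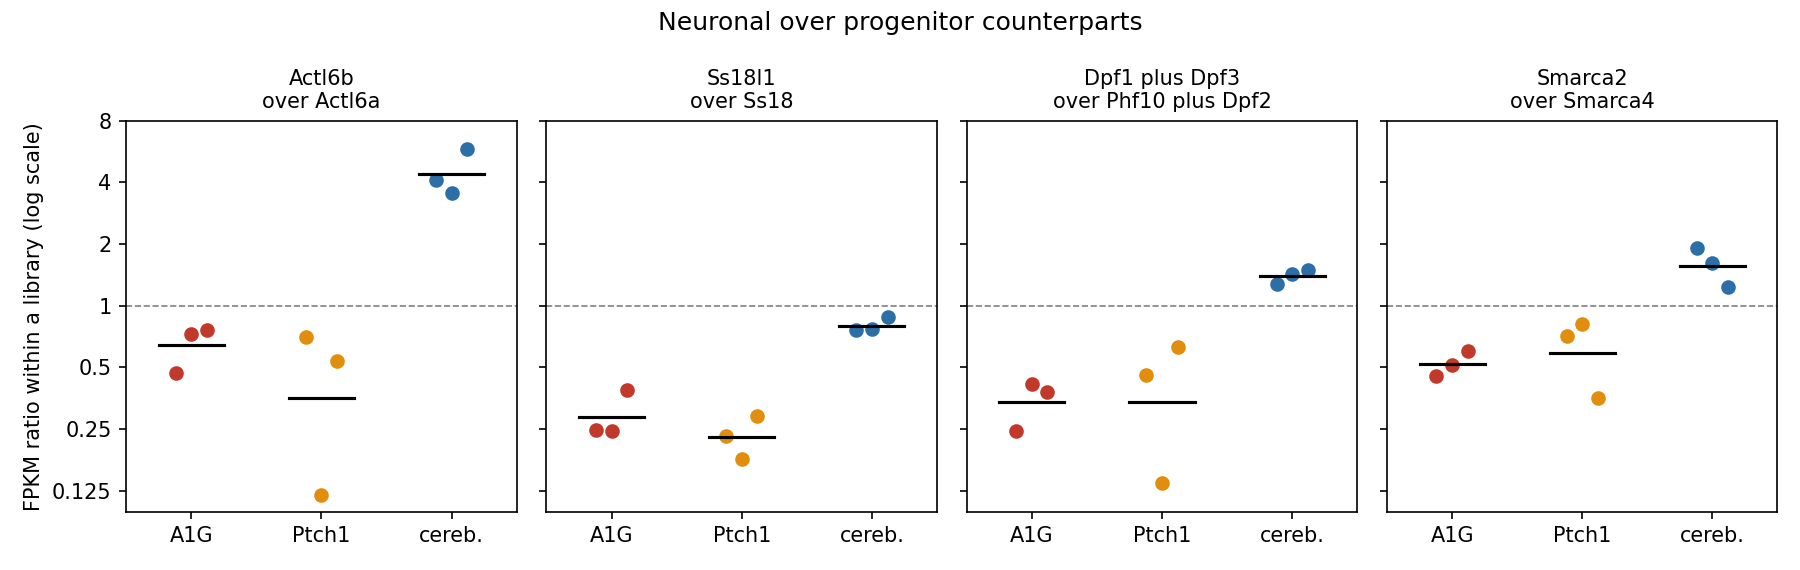
Ratios inside each library on the FPKM scale, on a log axis with a dashed line at a ratio of 1. Points are single libraries and bars the geometric mean of each group. The neuronal subunit is set over the progenitor one for BAF53, BAF45 and SS18, and Smarca2 over Smarca4 for the ATPases. Cerebellum lies above 1 for BAF53, BAF45 and the ATPases and just below it for SS18, and all 6 tumour libraries lie below cerebellum in every panel.

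Between A1G and Ptch1 tumours, none of the 10 members was called by edgeR, where 0.0139% of all tested genes were (2 of 14337), and DESeq2 called none of the members and 1.29% of genes. At an unadjusted p under 0.05 there were 2 members by each tool, Actl6a and Dpf2 with edgeR, against 10.6% of tested genes. These were also the members whose libraries did not overlap, 1 in each direction, as for 15.5% of tested genes (6.69% higher and 8.84% lower in A1G tumours). Actl6a was 1.58-fold higher in Ptch1 than in A1G tumours (log2 -0.66 for A1G minus Ptch1, SE 0.29, edgeR adjusted p = 0.449). Dpf2 was 2.02-fold higher in A1G tumours (log2 1.02, SE 0.38, edgeR adjusted p = 0.385). The log2 differences of the other 8 lay between -0.50 (Phf10, SE 0.36) and 0.13 (Ss18l1, SE 0.27). Dpf3 and Actl6b had the widest SEs (0.57 and 0.50), so their differences of 0.06 and 0.01 are loosely bounded.

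Markers of most cell types in the cerebellum also differed between tumours and cerebellum. Granule progenitor markers (7 genes, among them Ccnd1 and Barhl1) summed to 2596 to 6169 CPM in A1G tumours, 5748 to 6867 in Ptch1 tumours and 73.3 to 117 in cerebellum, and 7 of 7 were called higher in both tumour groups. Mki67, a gene of dividing cells in general, supplied much of these sums (means of 2231 CPM in A1G and 3764 in Ptch1 tumours). Atoh1 is also in the list, and the part of the A1G driver in its counts was not tested. Mature granule neuron markers (7 genes) included Cbln3 and the general neuronal gene Snap25, which had 1947 to 3505 CPM in cerebellum. The 7 genes summed to 729 to 2571 CPM in A1G tumours, 689 to 1559 in Ptch1 tumours and 6759 to 7605 in cerebellum. Of these, 6 were called lower in both tumour groups, and Reln, which did not pass in either, supplied much of the tumour sums (1117 CPM in A1G and 750.5 in Ptch1 tumours). Purkinje cell markers (5 of 5 called lower in both) summed to 326 to 649, 164 to 260 and 8009 to 10182 CPM in the same order, with Pcp2 at 0 in all 3 Ptch1 libraries. Interneuron markers (4 of 4 lower in both), oligodendrocyte markers (5 of 5) and astroglial markers (4 of 5) were also lower, with sums of 78.9 to 136, 63.1 to 414 and 262 to 1060 CPM over the 6 tumours and 908 to 1051, 6980 to 7512 and 2354 to 3556 CPM in cerebellum. Microglial markers summed to 92.7 to 176 CPM in tumours and 84.2 to 115 in cerebellum, and 2 of 4 were called higher in both tumour groups, with Cx3cr1 called lower in Ptch1 tumours. Endothelial markers summed to 27.7 to 98.8 and 94.0 to 140 CPM, with 1 of 4 called lower in both. The defining progenitor gene Atoh1 was at 0 in cerebellum replicate 1. Several marker lists also differed in A1G against Ptch1 tumours. All 5 Purkinje cell markers were higher in A1G tumours, and Calb1 was called (log2 3.81, edgeR adjusted p = 0.0063). So were 7 of 7 mature granule, 5 of 5 oligodendrocyte, 3 of 4 interneuron and 4 of 5 astroglial markers, none of them called. Of the granule progenitor markers 2 were higher and 5 lower, none called. The part of these cell types in the subunit differences, against cerebellum or between the tumours, was not tested.

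Within the tumours, neuron markers and neuronal subunits matched only in part. Ptch1 replicate 2 had the smallest mature granule sum (689 CPM) and the lowest Actl6b (6.85 CPM), and A1G replicate 1 the next smallest sum (729 CPM) and the lowest Dpf3 (5.90 CPM). That order depends on Reln. Over the other 6 markers, a sum taken after the values were seen, Ptch1 replicate 2 stayed lowest (180 CPM), but Ptch1 replicate 1 (313 CPM) was below A1G replicate 1 (341 CPM) while its Actl6b (30.5 CPM) was among the highest of the tumours. Dpf1 was lowest in A1G replicate 3 (8.22 CPM), whose marker sum was high (2069 CPM with Reln and 744 CPM without). A1G replicate 2 had the largest such sum of the tumours (2571 CPM), the smallest progenitor sum (2596 CPM), and the highest Actl6b of the tumours (30.6 CPM). Its place in the progenitor sum depends on Mki67, at 3475, 620 and 2597 CPM in A1G replicates 1, 2 and 3. Within the A1G group, Gli1, Ccnd1 and Top2a were also lowest in replicate 2. Atoh1 and Mycn were lowest in replicate 3, and Barhl1 was highest in replicate 2 (532 CPM). Leaving out A1G replicate 2 changed no member's call.

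**Figure D4:**
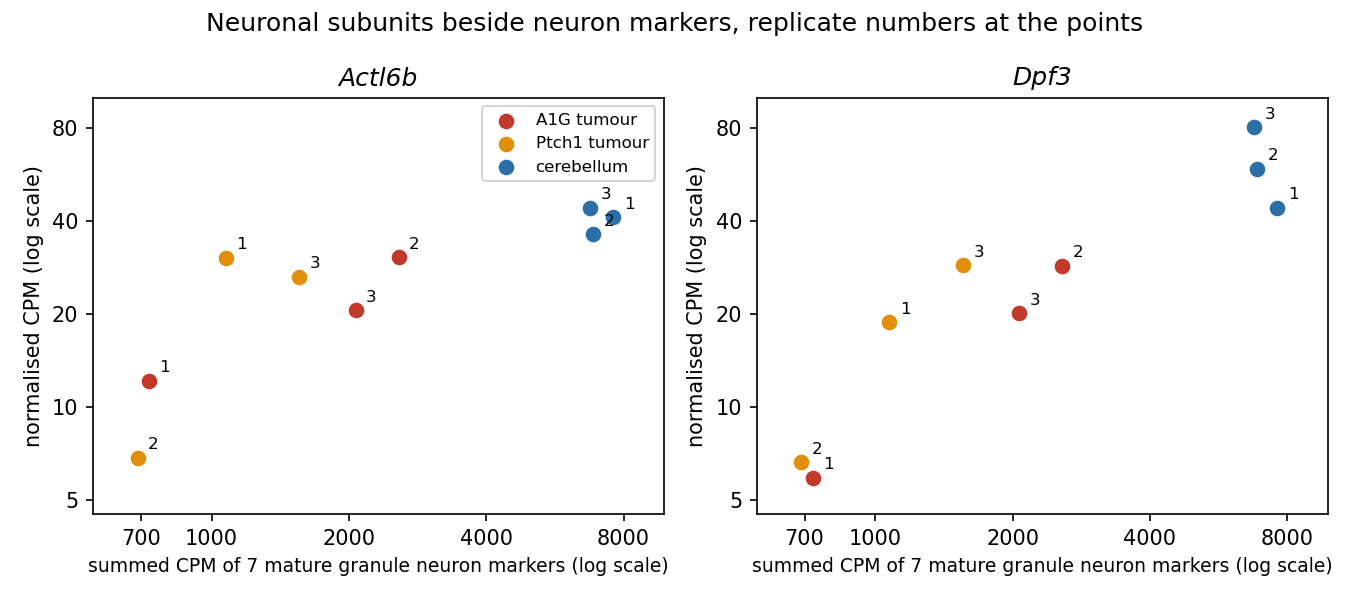
Normalised CPM of Actl6b and Dpf3 against the summed CPM of 7 mature granule neuron markers in the same library (both axes log), 1 point per library with its replicate number, coloured by group. The cerebellum libraries lie at the upper right, and A1G replicate 1 and Ptch1 replicate 2 lie lowest in both panels. The sums include Reln, which passed the test in neither tumour group, and Snap25, a general neuronal gene.

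Over the 9 libraries, the genes whose log2(CPM + 1) followed Actl6a most closely were Alyref, an mRNA export adaptor (Pearson r = 0.992), Nelfe, a subunit of the negative elongation factor (r = 0.991), and Aplf, a DNA end-joining factor (r = 0.991). For Actl6b they were Neurod2, a neuronal basic helix-loop-helix factor (r = 0.987, with group means of 75.5, 62.6 and 233 CPM in A1G tumours, Ptch1 tumours and cerebellum), Clstn1, a calsyntenin of synapses (r = 0.954), and Celf4, a neuronal RNA-binding protein (r = 0.946). These correlations describe 9 points in 3 groups that share libraries and depth, picked as the highest of all tested genes.

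The rest of the BAF family leaned towards higher levels in the tumours. Of 21 other subunits, 8 were called higher and 1 lower in A1G tumours, and 10 higher and 2 lower in Ptch1 tumours. Over all tested genes 16.3% were called higher and 16.1% lower in A1G tumours, and 20.2% and 19.7% in Ptch1 tumours. The list had median log2 differences of 0.71 and 0.89 (0.03 and 0.00 over all tested genes). Bcl11a, a zinc finger subunit, rose most, from 17.1 CPM in cerebellum to 86.8 in A1G tumours (log2 2.34, edgeR adjusted p = 0.000703) and 123 in Ptch1 tumours (log2 2.84, adjusted p = 0.000143). The scaffold subunit Smarcc1 (BAF155) rose by log2 1.81 and 1.97, the PBAF subunit Pbrm1 by 1.64 and 1.61, and Bcl7a by 1.49 and 1.36. Bcl11b rose by 2.40 in Ptch1 tumours (adjusted p = 0.0106) and was 1.16 higher in A1G tumours, which did not pass (adjusted p = 0.195). Smarce1 (BAF57) rose by 1.24 and 1.92 and had the smallest p of these subunits between the tumours (log2 -0.67 for A1G minus Ptch1, SE 0.23, adjusted p = 0.352).

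Bcl7b went the other way from Bcl7a, its paralogue. Its level was 28.6 ± 3.37 CPM in A1G tumours and 31.3 ± 8.78 in Ptch1 tumours against 83.7 ± 15.7 in cerebellum (log2 -1.55 and -1.43, edgeR adjusted p = 0.0017 and 0.0019). Gltscr1l, a subunit of the non-canonical complexes, was called lower in Ptch1 tumours (log2 -0.84, adjusted p = 0.0294), and its difference of -0.28 in A1G tumours did not pass (adjusted p = 0.470). The test between the tumour groups did not pass for it either (adjusted p = 0.50). Smarcd3 (BAF60c), a subunit of heart and neuronal complexes named here after its values were seen, had 8.01, 8.32 and 23.6 CPM as group means and did not pass (log2 -1.54 and -1.50, adjusted p = 0.0905 and 0.0803).

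A list drawn up around the subunit exchange had 7 genes with values: Rest, its cofactors, and the splicing regulators Ptbp1 and Ptbp2. Over all tested genes 16.3% were called higher in A1G and 20.2% in Ptch1 tumours. Of the 7 genes, 6 were called higher in both tumour groups and none lower. REST itself was the exception: Rest had 20.4 CPM in A1G tumours, 16.5 in Ptch1 tumours and 19.3 in cerebellum (log2 0.08 and -0.22, edgeR adjusted p = 0.898 and 0.694). Its corepressor Rcor2 had 248 ± 81.9 and 336 ± 110 CPM in the tumours and 2.02 ± 1.73 CPM in cerebellum (log2 6.96 and 7.40, adjusted p = 5.6e-06 and 2.8e-06). Ptbp1, the splicing repressor that miR-124 is known to act on, had 205 and 211 CPM against 38.05 in cerebellum (log2 2.43 and 2.47, adjusted p = 5.2e-05 and 3.2e-05). Ptbp2 rose by 1.17 in A1G and 0.997 in Ptch1 tumours. In the same order the REST-associated demethylase Kdm1a rose by 1.07 and 0.89, and the corepressor Rcor1 by 0.85 and 0.98. None of the 7 was called between the tumour groups, nor passed there at an unadjusted p under 0.05, and Rcor2 had the smallest p (log2 -0.44, adjusted p = 0.737). The host transcripts of miR-124 and miR-9 in that list were not analysed here.

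Smarca2 also differed from the other members in the length on which its FPKM rests. The deposited scaled fragments divided by the deposited FPKM are proportional to the length the authors' quantification used for a gene in that library. Each library's quotients were divided by that of Actl6a, to remove the library's own constant, and then by the cerebellum mean of the gene. For Smarca2 the result was 0.791, 0.825 and 0.833 in A1G tumours and 0.707, 0.618 and 0.873 in Ptch1 tumours, and 0.990 to 1.005 in cerebellum. All 6 tumours were below all 3 cerebellum libraries. GENCODE M21 lists 27 coding transcripts of Smarca2, from 421 to 5921 bases. The quotient of Dpf3 was 1.04 to 1.51 in tumours and 0.971 to 1.03 in cerebellum, that of Ss18 was 0.947 to 0.983 in tumours, and the other 6 members were within 0.01 of 1 in all libraries, Actl6a being 1 by construction. With this length left out, the fall of the Smarca2 to Smarca4 ratio was larger, on raw fragments (log2 -1.88 in A1G and -1.86 in Ptch1 tumours), than on FPKM (-1.58 and -1.40). The BAF45 ratio went the other way: its fall was smaller on raw fragments than on FPKM (log2 -2.05 in A1G and -2.04 in Ptch1 tumours on FPKM). That of the SS18 ratio was slightly smaller on raw fragments as well. The transcripts behind the quotient were not measured one by one.

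**Figure D5:**
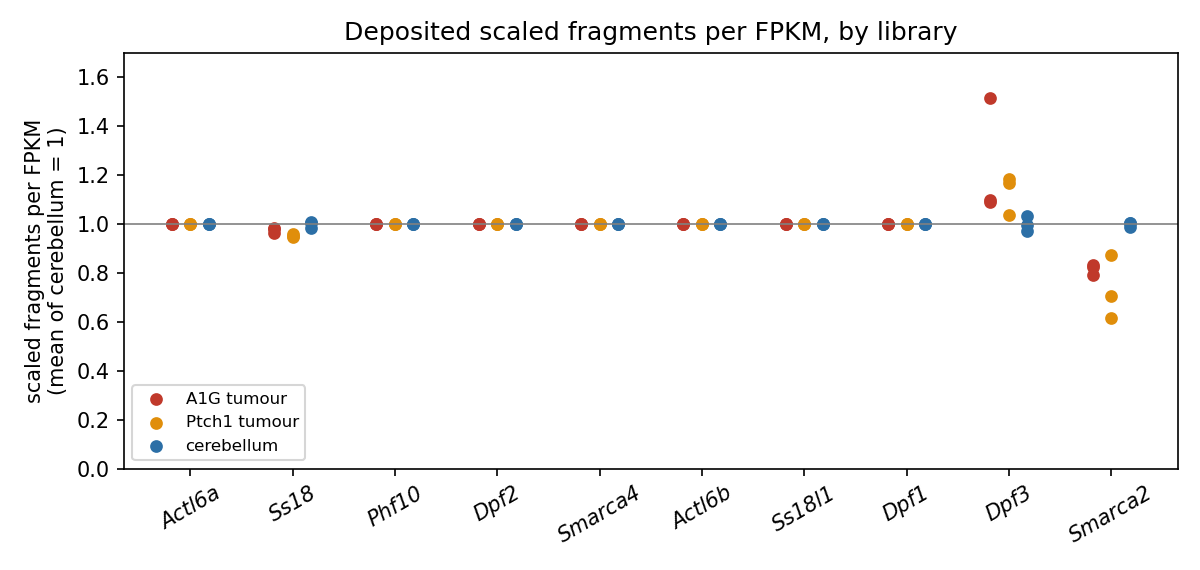
Deposited scaled fragments per FPKM of each of the 10 subunits, relative to Actl6a in the same library and to the mean of the 3 cerebellum libraries (linear axis), 1 point per library coloured by group. Smarca2 lies between 0.618 and 0.873 in the 6 tumours, Dpf3 lies above 1 there, and most other subunits sit at 1.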

How the data were processed

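RNA of 9 mouse samples was depleted of ribosomal RNA and sequenced on Ion Proton chips that carried 3 libraries each, per the labels' protocols. The assignment of libraries to chips is not given here, so chip and group cannot be told apart. The submitters' processing notes name mm10 and Bowtie 0.12.2. No quantification tool or annotation is given in the sources. Per the file headers, the deposited expected counts are raw fragments per gene, the deposited signal columns are those fragments after the authors' scaling, and the deposited FPKM values are the authors' fragments per kilobase per-million. Between 1147 and 1440 genes per library held values that were not whole (tolerance 1e-06). Tumour and cerebellum FPKM were scaled separately by the authors, so FPKM was used only inside a library.

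Fragments were rounded and fitted with edgeR 4.0.16 (R 4.3.3), scaled by TMM with a mean for each group and all 9 libraries in 1 fit, for the 14337 genes that reached FPKM 1 in 3 or more libraries, with Benjamini-Hochberg adjustment and a threshold of 0.05. The fit was tested on simulated data. Alternatives were DESeq2 1.42.0, median-of-ratios scaling, no or a stricter filter, fewer groups, a replicate block, and each library left out. Ratios were compared by exact permutation tests (SciPy 1.17.1). Replicates of a group had Spearman correlations of 0.887 to 0.968 across genes.

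The 10 members and all gene lists were chosen with earlier results of these data known. All 10 members are described, called or not. Of the other BAF subunits, regulators and remodellers, the rule named up to 4 called genes of largest difference per direction against cerebellum and, between tumours, the smallest p. Of each marker list it named up to 2 of the most abundant in cerebellum. Coordinates are from GENCODE M21, matched by symbol, and promoter and microRNA sequences from RefSeq. The gene Srcap and 3 microRNA host genes of the lists were not analysed here.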

Additional observations from a re-analysis of the deposited data

How the results depend on the processing

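Called members against cerebellum kept their counts under DESeq2, median-of-ratios scaling, both other filters, the fit on the compared groups alone and the replicate block. Leaving out 1 library moved the members called higher in A1G tumours between 2 and 4 (4 without cerebellum replicate 3) and those called lower between 1 and 2; in Ptch1 tumours the higher members ran from 2 to 3 and the lower ones from 1 to 2. Those moves came from Dpf3, Smarca4 and Dpf2. With Actl6a, Ss18 and Smarca2, the log2 differences over these fits were 1.51 to 1.90, 0.98 to 1.21 and -1.45 to -1.14 in A1G tumours, and 2.31 to 2.53, 1.13 to 1.37 and -1.10 to -0.93 in Ptch1 tumours. Between the tumours, small differences changed sign, none of them called: Actl6b was -0.018 without a filter and -0.00083 on the 2 groups alone, and with 1 library left out Actl6b ran from -0.43 to 0.39, Dpf1 from -0.43 to 0.39, Dpf3 from -0.44 to 0.55 and Ss18l1 from -0.034 to 0.25. Against cerebellum, Phf10 ran from -0.093 (without A1G replicate 2) to 0.48 in A1G tumours, and Dpf2 from -0.52 to 0.16 (without cerebellum replicate 3) in Ptch1 tumours. Between the tumours the BAF45 ratio differed by log2 0.37 as Dpf3 over Phf10, by -1.02 as Dpf1 over Dpf2 and by -0.66 to 0.44 with 1 library left out, the ATPase ratio by -0.55 to 0.050 and the BAF53 ratio by 0.060 to 1.34.

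Over all tested genes, edgeR called 2 between the tumours, DESeq2 163, the fit without a filter 72 higher and 9 lower, and the fit on 2 groups none. Replicate numbers gave no clear pairing of the libraries: deviations of same-numbered libraries correlated from -0.07 to 0.21, over 0.1 in 3 of 9 pairs. Of 18 best matches, each among 3 candidates, 9 were to the own number. With 3 libraries per group this check cannot show whether libraries shared an animal or batch. With the replicate block, 2 higher and 2 lower members were called in A1G tumours and 3 and 2 in Ptch1 tumours. The shallowest library held 2350941 fragments and the lowest member count was 16 fragments, for Dpf3, so Dpf3, Dpf1 and Actl6b rest on the fewest counts.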

Other observations

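Remodelling ATPases outside the BAF family were higher in the tumours more often than lower. Of 19 such genes, 6 were called higher and 1 lower in A1G tumours, and 9 higher and 1 lower in Ptch1 tumours, against 16.3% higher and 16.1% lower of all tested genes in A1G tumours and 20.2% and 19.7% in Ptch1 tumours. Their median log2 differences were 0.55 and 0.66. Hells, the remodeller that aids DNA methylation, rose most, from 4.75 ± 0.865 CPM in cerebellum to 128 ± 44.8 in A1G tumours and 202 ± 103 in Ptch1 tumours (log2 4.76 and 5.42, edgeR adjusted p = 1.7e-05 and 5.2e-06). Smarcad1 rose by log2 1.67 and 2.49, the NuRD ATPase Chd4 by 1.38 and 1.74, and Smarca5, the ISWI ATPase, by 1.18 and 1.53. Chd7, mutated in CHARGE syndrome, rose by 1.35 in A1G and 1.24 in Ptch1 tumours, and all of these were called in both groups. Chd5, a neuronal NuRD ATPase, fell by 2.55 in A1G and 2.63 in Ptch1 tumours (edgeR adjusted p = 0.00281 and 0.00165), to 7.20 ± 1.27 and 7.18 ± 6.08 CPM from 42.4 ± 10.2 CPM. None was called between the tumour groups, where 2 had an unadjusted p under 0.05, and Smarcad1 had the smallest p (log2 -0.82 for A1G minus Ptch1, SE 0.24, adjusted p = 0.299).

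The length quotient of Smarca2 was unusual among genes. Of 12938 genes with values in all libraries, 6 (0.0464%) had all 6 tumours below 0.9 of the cerebellum mean and below every cerebellum library, namely Add2, Dlgap4, Rbm3, Rtn1, Sin3b and Smarca2, while 83.5% of genes stayed within 0.01 of 1 in all 9 libraries. In the other direction, 15 genes (0.116%) had all 6 tumours above 1.1 of the cerebellum mean and above every cerebellum library. The rule for lower values was set after the Smarca2 values were seen, and the result is a description.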
